A study of Mus musculus with 6 samples.

Results

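The selectins and immunoglobulin adhesion receptors examined here are 10 genes of the 23337 in the deposited count table, taken by their symbols: Sele, Selp, Icam1, Icam2, Vcam1, Madcam1, Cd44, Mcam, Alcam and Cd47. They were measured by RNA sequencing in primary endothelial cells of mouse liver sinusoids, isolated with immunomagnetic beads, grown in endothelial medium with fetal bovine serum, plated on collagen IV and serum starved. The control group had 3 unstretched libraries, which carry the replicate numbers 2, 3 and 4. The stretch group had 3 libraries, numbered 1, 2 and 4, from cells stretched cyclically by 4% at 1 Hz on a Flexcell device, which deforms a flexible culture plate. Strain, age and sex of the mice and how long the cells were stretched are not stated in the labels. The labels do not say whether the libraries of a group came from separate animals or cultures, so p-values measure only the spread between these samples, which may be technical. The comparison asks how transcript levels change with cyclic stretch.

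Endothelial adhesion receptors act in sequence when leukocytes leave the blood. Selectins bind sugar-bearing ligands and let leukocytes tether and roll, and ICAM-1 and VCAM-1 of the immunoglobulin superfamily then hold them by their integrins. Liver sinusoids are low-flow vessels in which rolling contributes little, and ICAM-1 and VCAM-1 take part in leukocyte arrest there.

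The libraries held between 48948948 and 68489956 counts, with every stretch library (58503669 or more) deeper than every control library (57923937 or less). Levels are given as CPM (counts relative to library size) scaled by the trimmed mean of M-values (TMM), which corrects for library composition. After a filter on low counts, 14222 genes were tested with edgeR's quasi-likelihood test, with Benjamini-Hochberg adjustment over all of them and calls made where the adjusted p was under 0.05. Of these, 3040 genes (21.4%) were called higher in stretch and 3221 (22.6%) lower. Higher calls made up 48.6% of all calls, and 32.7% when libraries were scaled by size alone. Markers of all endothelium were present at a summed level of 7671 to 8662 CPM in control and 7565 to 8364 CPM in stretch. Of the 10, 5 were called lower, among them Kdr and Erg, and 0 higher. Cdh5 averaged 2908 CPM in control and 3296 CPM in stretch, and Cldn5 257 and 313 CPM, without a call. Defining sinusoidal markers summed to 8216 to 9366 CPM in control and 6001 to 7021 CPM in stretch, and 8 of the 11 were called lower, among them Stab1, Fcgr2b, Oit3 and Maf. Lyve1 averaged 931 CPM in control and 1022 CPM in stretch and was not called. In bulk RNA, fewer cells of a type and less RNA per cell cannot be told apart.

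Other cell types of the liver also express several of these receptors, so the sums of their marker lists are given. The 12 macrophage markers summed to 79.2 to 93.9 CPM in control and 113.3 to 156.5 CPM in stretch, and 9 of 10 tested were called higher. Cd68 made up most of this sum, with means of 66.9 CPM in control and 81.9 CPM in stretch. Rarer markers differed by larger factors, such as Marco (0.256 and 2.45 CPM) and Cd5l (1.17 and 5.37 CPM). The 9 hepatocyte markers summed to 67.2 to 80.5 CPM in control, 105 and 119 CPM in stretch replicates 4 and 2, and 512 CPM in stretch replicate 1. Of these, 7 were called higher. The 5 cholangiocyte markers went from 115.8 to 145.4 CPM to 164.8 to 207.7 CPM, with 3 called higher. Lymphocyte markers summed to 0.494 to 1.03 CPM in control and 1.19 to 1.78 CPM in stretch. Cd3d, Cd2, Nkg7 and Ms4a1 were at 0, and no gene of the 2 tested was called. Neutrophil markers stayed under 0.143 CPM in sum in every library, with S100a9, Mpo and Retnlg at 0. Platelet and megakaryocyte markers summed to 4.63 to 6.62 CPM, with no gene called. Stellate cell and fibroblast markers (56.7 to 93.8 CPM) had no gene called. Mesothelial markers summed to 32.0 to 36.1 CPM in control and 21.6 to 31.6 CPM in stretch, with no gene called. Large vessel endothelial markers (370 to 433 CPM) had 1 called higher and 2 lower of 9. The part of any of these in the results below was not tested.

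The upstream sequence of the inducible receptors is shown first, because Sele, Icam1 and Vcam1 are classic targets of NF-kB, the transcription factor that inflammatory cytokines activate. RefSeq promoter windows (GRCm38.p6) were matched for 8 members, and Vcam1 and Icam2 had no entry. In each, the 250 bases before the start were searched on both strands for 4 motifs. They were the NF-kB consensus, a shorter form of it written GGNNNTTCC, TGANTCA and the cyclic AMP response element TGACGTCA. TGANTCA is a loose form of the AP-1 site, which has C or G at the N. Matches to the first 2 can overlap. Over all 32807 windows of the same length, 7.25% held the NF-kB consensus, 15.7% GGNNNTTCC, 6.75% TGANTCA and 1.55% TGACGTCA. The last 160 bases before the start are printed 5′ to 3′ for the members with an NF-kB type match, with the matches in capitals. All 4 lie on the plus strand, Sele at chr1:164048074-164048233, Selp at chr1:164115104-164115263, Icam1 at chr9:21015780-21015939 and Madcam1 at chr10:79664399-79664558.
Sele: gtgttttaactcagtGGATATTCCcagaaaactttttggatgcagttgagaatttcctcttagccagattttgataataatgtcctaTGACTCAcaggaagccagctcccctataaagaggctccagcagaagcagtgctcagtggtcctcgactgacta
Selp: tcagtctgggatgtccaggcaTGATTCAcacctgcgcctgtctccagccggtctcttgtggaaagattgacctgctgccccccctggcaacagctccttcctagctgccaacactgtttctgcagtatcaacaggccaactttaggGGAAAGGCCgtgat
Icam1: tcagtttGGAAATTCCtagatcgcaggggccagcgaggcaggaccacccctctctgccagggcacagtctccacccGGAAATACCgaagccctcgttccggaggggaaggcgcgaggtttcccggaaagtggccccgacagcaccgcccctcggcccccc
Madcam1: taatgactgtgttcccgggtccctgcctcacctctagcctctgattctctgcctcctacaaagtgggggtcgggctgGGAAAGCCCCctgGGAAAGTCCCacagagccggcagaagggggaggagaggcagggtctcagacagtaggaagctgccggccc
The start here is that of the RefSeq window. For Icam1 and Madcam1 it lies upstream of the gene start given with the counts (chr9:21015960 and chr10:79664574). Counting from -1 at the base before the start, Sele held GGATATTCC at -145 to -137 and TGACTCA at -73 to -67. Selp, on the same chromosome, held TGATTCA at -139 to -133 and, as GGNNNTTCC read on the other strand, GGAAAGGCC at -14 to -6. Icam1 had GGAAATTCC at -153 to -145 and, on the other strand, GGAAATACC at -84 to -76. Madcam1 was the only one of the 8 members with the full consensus, found at -83 to -74 and at -70 to -61 on the other strand. Mcam had TGACGTCA at -29 to -22, and the Cd44, Alcam and Cd47 windows had no match to any of the 4 motifs. A match describes these letters and is not a measured binding site.

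Of the 9 members tested, 6 were called higher in stretch (Sele, Mcam, Cd44, Vcam1, Alcam and Icam1) and 0 lower, against 21.4% and 22.6% of all genes tested. At an unadjusted edgeR p under 0.05, 2 members, Selp and Cd47, were lower, 1 member was called lower by DESeq2 and 0 by limma-voom. The median log2 fold change of the 9 was 0.55, and that of all 14222 genes was -0.01. For 7 of the 9, the groups were fully apart in CPM, with 6 higher in stretch (26.7% of all genes) and 1 lower (29.2% of all genes). Madcam1 did not pass the filter on low counts. The members were chosen with earlier results of these data known, so these counts and the median describe them and are no independent test.

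**Figure D1:**
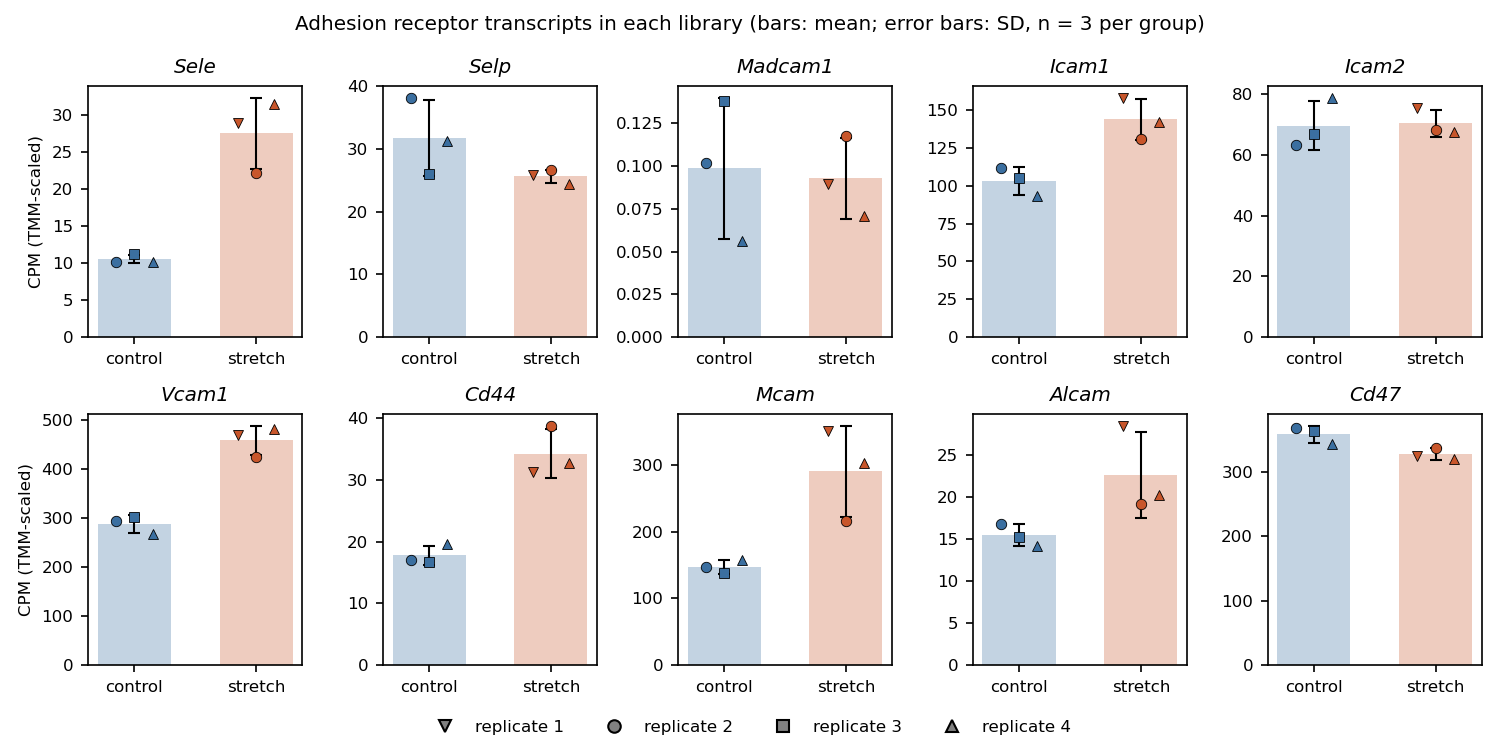
TMM-scaled CPM (vertical axes, linear from 0) of the 10 receptors in each library, with points for the libraries, bars for group means and error bars for the SD (n = 3 per group). All 3 stretch points lie above all 3 control points for Sele, Icam1, Vcam1, Cd44, Mcam and Alcam, and below them for Cd47.

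The selectins stood apart from each other. E-selectin, encoded by Sele (chr1:164048234-164057677), is made by endothelium after cytokine stimulation and slows rolling leukocytes. Sele was at 10.2, 11.2 and 10.2 CPM in control (replicates 2, 3 and 4, in this order throughout) and at 28.9, 22.2 and 31.5 CPM in stretch (replicates 1, 2 and 4). Every stretch library was above every control library, and the lowest of them was replicate 2. The mean rose from 10.5 ± 0.556 to 27.5 ± 4.78 CPM (SD, n = 3), a log2 fold change of 1.39 ± 0.12 (SE) with a 95% interval of 1.10 to 1.67 (2.61-fold, edgeR adjusted p = 0.000106). Only 2.58% of the genes tested had a larger absolute log2 fold change, and none of the other members did.

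P-selectin, encoded by Selp (chr1:164115264-164150026), is stored in endothelial granules and in platelets and reaches the surface within minutes of stimulation. Selp was at 38.1, 26.0 and 31.2 CPM in control and 25.8, 26.6 and 24.5 CPM in stretch. The groups overlapped, since control replicate 3 lay below stretch replicate 2, and the control libraries were the more widely spread. Control averaged 31.8 ± 6.09 CPM and stretch 25.6 ± 1.09 CPM (SD, n = 3), a log2 fold change of -0.31 ± 0.12 (95% interval -0.59 to -0.03) that did not pass the test (edgeR adjusted p = 0.0701). This value turned on single libraries, moving to -0.16 (adjusted p = 0.226) with control replicate 2 left out and reaching -0.44 (adjusted p = 0.00976) with control replicate 3 left out. It also passed as lower with DESeq2 (adjusted p = 0.0420) and with scaling by library size alone (adjusted p = 0.0248).

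The predicted gene Gm16548 (chr1:164148576-164152217) overlaps the end of Selp, and its log2 fold change was -0.29 (edgeR adjusted p = 0.123). No source states whether counting used strand, so reads from the segment that both genes share cannot be told apart.

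Within a library, the ratio of Sele to Selp counts does not depend on the scaling of that library. It was 0.268, 0.431 and 0.327 in the control libraries and 1.12, 0.835 and 1.29 in the stretch libraries. All control libraries thus held fewer Sele than Selp counts, and stretch replicates 1 and 4 held more. The log2 ratio, with 0.5 added to each count, went from -1.58 ± 0.34 to 0.09 ± 0.32 (SD, n = 3), a difference of 1.67 (exact two-sided permutation p = 0.1, which is as low as 3 against 3 can go).

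The intercellular adhesion molecules also differed. ICAM-1 is the inducible ligand of the leukocyte integrins LFA-1 and Mac-1, encoded by Icam1 (chr9:21015960-21028796). Icam1 was at 111.4, 105.3 and 93.3 CPM in control and 158.0, 131.1 and 142.3 CPM in stretch. The groups did not overlap, with stretch replicate 2 the lowest of its group, as for Sele. The mean rose from 103.3 ± 9.19 to 143.8 ± 13.5 CPM (SD, n = 3), a log2 fold change of 0.48 ± 0.08 (95% interval 0.28 to 0.67, 1.39-fold, edgeR adjusted p = 0.00229). Icam4 and Icam5, which follow Icam1 on chromosome 9, were near the limit of detection. Icam4 averaged 0.212 CPM in control and 0.150 CPM in stretch (edgeR adjusted p = 0.523), and Icam5 averaged 0.0828 and 0.0772 CPM and was not tested.

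ICAM-2 is a ligand of LFA-1 that endothelium carries without induction, encoded by Icam2 (chr11:106377656-106382641). Icam2 was at 63.3, 66.8 and 78.7 CPM in control and 75.5, 68.0 and 67.6 CPM in stretch. All 3 stretch libraries lay within the range of the control libraries. Control averaged 69.6 ± 8.07 CPM and stretch 70.4 ± 4.42 CPM (SD, n = 3), and the log2 fold change of 0.02 ± 0.08 did not pass the test (edgeR adjusted p = 0.900). The 95% interval spans folds of 0.885 to 1.16, and the sign of the estimate turned with the scaling and with single libraries left out. The log2 ratio of Icam1 to Icam2 was 0.57 ± 0.29 in control and 1.03 ± 0.07 in stretch (SD, n = 3), a difference of 0.46 with no overlap between the groups (exact two-sided permutation p = 0.1, the smallest possible).

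VCAM-1 binds the integrin VLA-4 of lymphocytes, monocytes and eosinophils, and MAdCAM-1 binds the gut-homing integrin of lymphocytes. Vcam1 (chr3:116110020-116129688) was at 294, 302 and 266.8 CPM in control and 469.6, 424.8 and 480.2 CPM in stretch. Every stretch library exceeded the highest control library by over 100 CPM. The mean rose from 287.6 ± 18.5 to 458.2 ± 29.4 CPM (SD, n = 3), a log2 fold change of 0.67 ± 0.07 (95% interval 0.52 to 0.82, 1.59-fold, edgeR adjusted p = 0.000150). Madcam1 (chr10:79664574-79668536) had 6, 7 and 3 counts in the control libraries and 5, 8 and 4 in the stretch libraries. That is 0.0561 to 0.138 CPM in control and 0.0711 to 0.118 CPM in stretch, and a change was not detectable at this depth. With no filter its log2 fold change was -0.07 ± 0.74, with a 95% interval of -1.72 to 1.57.

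**Figure D2:**
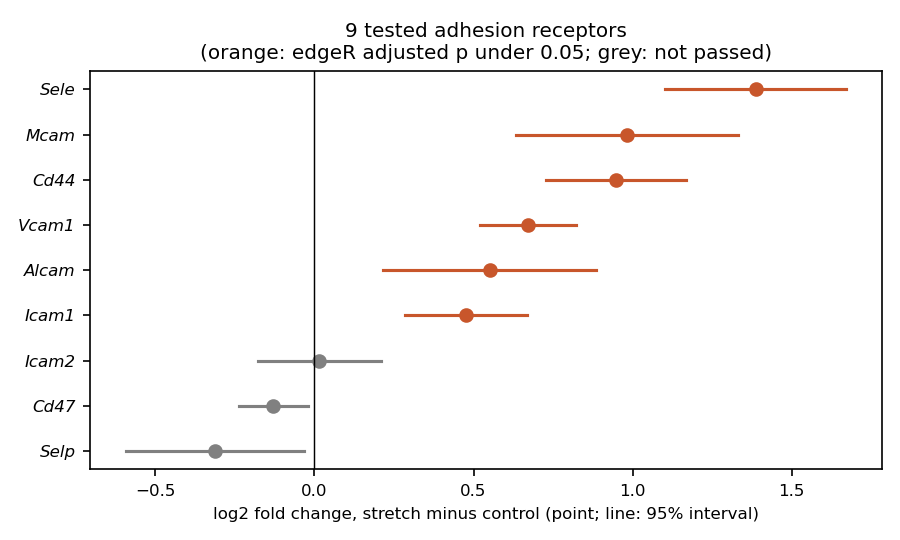
Log2 fold change of stretch over control for the 9 tested receptors (horizontal axis), with points for the edgeR estimate and bars for its 95% interval. The intervals of Sele, Mcam, Cd44, Vcam1, Alcam and Icam1 lie above 0, that of Icam2 spans 0, and those of Selp and Cd47 lie below 0 although neither passed the adjusted test.

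CD44 binds hyaluronan on the cell surface and can carry selectin ligands, and CD47 is the signal that keeps phagocytes from engulfing a cell and also binds thrombospondin. Cd44 (chr2:102811142-102901665) was at 17.1, 16.8 and 19.6 CPM in control and 31.3, 38.8 and 32.7 CPM in stretch. The groups did not overlap, and replicate 2 was the highest of the stretch libraries, whereas it was the lowest for Sele, Icam1, Vcam1, Mcam and Alcam. The mean rose from 17.8 ± 1.54 to 34.3 ± 3.97 CPM (SD, n = 3), a log2 fold change of 0.95 ± 0.10 (95% interval 0.73 to 1.17, 1.93-fold, edgeR adjusted p = 0.000166).

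Cd47 (chr16:49855654-49911683) was at 368.9, 363.5 and 343.6 CPM in control and 325.3, 337.8 and 320.9 CPM in stretch. All stretch libraries were below all control libraries, by a small margin. Control averaged 358.7 ± 13.3 CPM and stretch 328.0 ± 8.77 CPM (SD, n = 3), a log2 fold change of -0.13 ± 0.05 (95% interval -0.24 to -0.02) that did not pass the test (edgeR adjusted p = 0.0555). It passed as lower when libraries were scaled by size alone (-0.22, adjusted p = 0.00667) and without control replicate 4 (-0.16, adjusted p = 0.0433). The log2 ratio of Cd44 to Cd47 counts moved from -4.33 ± 0.17 in control to -3.26 ± 0.13 in stretch (SD, n = 3), a difference of 1.07 (exact two-sided permutation p = 0.1, the smallest possible).

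**Figure D3:**
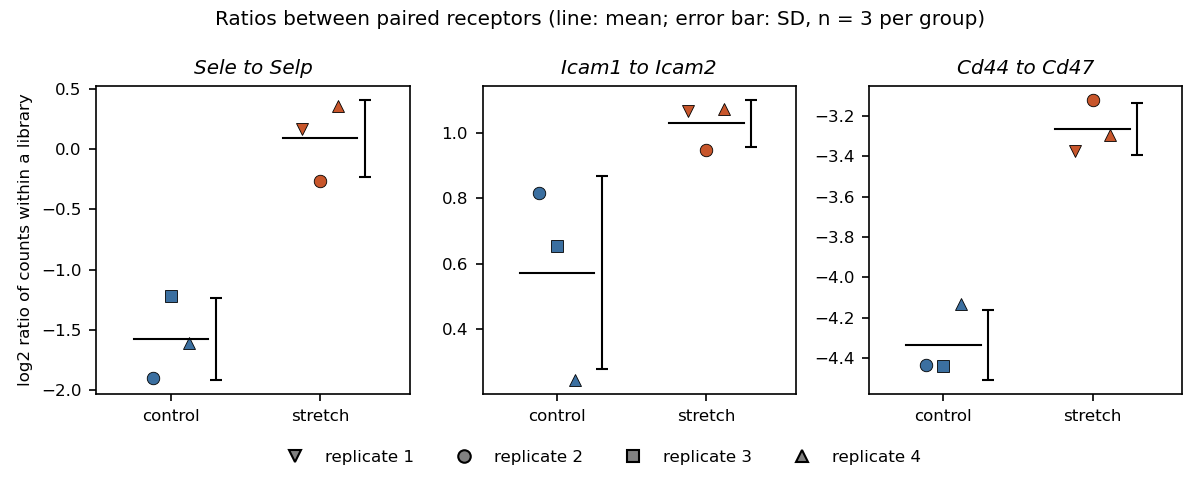
Log2 ratio of counts within each library (vertical axes) for Sele to Selp, Icam1 to Icam2 and Cd44 to Cd47, with points for the libraries, lines for group means and error bars for the SD (n = 3 per group). Each ratio is higher in all 3 stretch libraries than in any control library, with differences of the means of 1.67, 0.46 and 1.07.

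Mcam and Alcam encode immunoglobulin family molecules of endothelial contacts, MCAM (CD146) at junctions and ALCAM (CD166) as the partner of CD6 on T cells. Mcam (chr9:44134658-44142726) was at 146.5, 137.3 and 157.3 CPM in control and 351.8, 216.6 and 303.7 CPM in stretch. The control libraries lay close together and the stretch libraries were spread widely, all above control. The mean rose from 147.1 ± 10.004 to 290.7 ± 68.5 CPM (SD, n = 3), a log2 fold change of 0.98 ± 0.15 (95% interval 0.63 to 1.33, 1.98-fold, edgeR adjusted p = 0.00122).

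Alcam (chr16:52248996-52452997) was at 16.8, 15.2 and 14.2 CPM in control and 28.5, 19.1 and 20.2 CPM in stretch. The groups did not overlap, and stretch replicate 1 stood above the other two. The mean rose from 15.4 ± 1.32 to 22.6 ± 5.12 CPM (SD, n = 3), a log2 fold change of 0.55 ± 0.15 (95% interval 0.21 to 0.89, 1.46-fold, edgeR adjusted p = 0.0160). Without stretch replicate 1, the library with 512 CPM of hepatocyte markers, the log2 fold change was 0.36 (adjusted p = 0.0145). Without control replicate 4 the call was lost (adjusted p = 0.0601).

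The stretch libraries took the order 2, 4, 1 from lowest to highest for Icam1, Mcam and Alcam. This is also the order of their summed macrophage markers and of their summed platelet and megakaryocyte markers. Sele and Vcam1 took the order 2, 1, 4, as did the summed large vessel endothelial markers. Cd44 took the order 1, 4, 2. The sums of the remaining marker lists took none of these orders. These orders rest on 3 libraries and are a description. In the authors' deposited table, the FDR was 3.25e-21 for Sele, 2.38e-17 for Vcam1, 7.16e-16 for Cd44, 2.96e-09 for Mcam, 2.54e-06 for Icam1 and 0.00324 for Alcam. The same deposited table by the authors gave 0.0742 for Selp, 0.110 for Cd47 and 1 for Icam2 and Madcam1.

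Levels of different genes can be compared per length, as the authors' RPKM (reads per kilobase of coding length, relative to library size). RPKM is not TMM-scaled as the CPM above is, so changes between groups differ on the RPKM scale. Icam2, for example, averaged 58.1 RPKM in control and 55.2 RPKM in stretch, but 69.6 and 70.4 CPM. On this RPKM scale Cd47 was the most abundant of the 10 in both groups, at 179 ± 4.44 in control and 154 ± 7.03 in stretch (SD, n = 3). Vcam1 came next, at 80.7 ± 4.61 RPKM in control and 121 ± 5.60 RPKM in stretch. Icam2 (58.1 ± 7.59 RPKM) preceded Mcam (48.5 ± 3.67 RPKM) in control with overlapping ranges, and Icam1 followed at 38.8 ± 2.89 RPKM. In stretch, Mcam (90.0 ± 19.8 RPKM) followed Vcam1, ahead of Icam2 (55.2 ± 3.06 RPKM) and Icam1 (50.8 ± 4.00 RPKM), whose ranges overlapped. Selp (8.79 ± 1.57 RPKM) was above Sele (3.45 ± 0.201 RPKM) in control without overlap, and in stretch Sele (8.47 ± 1.33 RPKM) and Selp (6.69 ± 0.394 RPKM) overlapped.

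The least abundant of the members called higher were Cd44 (3.004 ± 0.296 RPKM in control, 5.45 ± 0.740 RPKM in stretch) and Alcam (2.96 ± 0.204 and 4.09 ± 0.876 RPKM), which overlapped each other in both groups. In control the ranges of Sele and Cd44 overlapped too. Madcam1 was last, at 0.0661 ± 0.0276 RPKM in control and 0.0589 ± 0.0160 RPKM in stretch. The sum over the 10 receptors was 422.9 ± 1.70 RPKM in control and 495.5 ± 24.6 RPKM in stretch. Of that sum, Cd47 made up 42.2% ± 0.99 in control and 31.1% ± 2.84 in stretch (SD, n = 3), and Vcam1 19.1% ± 1.04 and 24.4% ± 0.91.

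**Figure D4:**
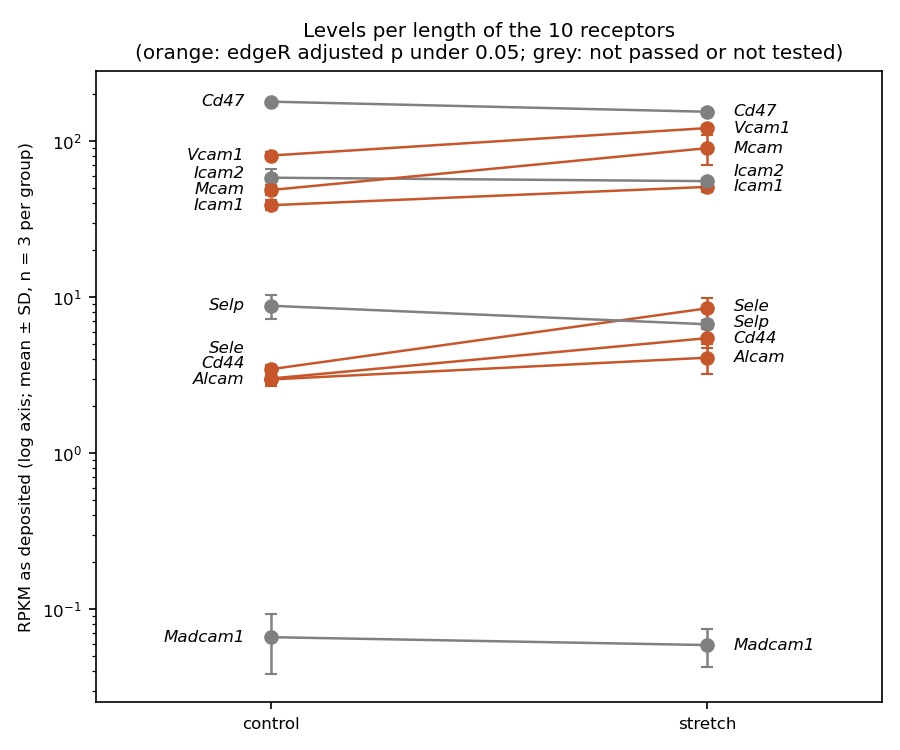
Mean level per coding length of the 10 receptors in control and stretch (RPKM, logarithmic axis), with lines joining the group means of a gene and error bars for the SD (n = 3 per group). Cd47 is highest and Madcam1 lowest in both groups, Sele crosses Selp and Mcam crosses Icam2.

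Genes with the most similar pattern to Sele and to Cd44 were ranked over 10385 genes by the root mean square difference of log2 CPM, each relative to its control mean, over the 6 libraries. Nearest to Sele were Kctd11 (difference 0.07, log2 fold change 1.32), Obfc2a (0.08, 1.44) and Jdp2 (0.09, 1.26). Jdp2, which encodes an AP-1 family repressor, averaged 65.1 ± 4.38 CPM in control and 155.9 ± 22.3 CPM in stretch (SD, n = 3). Nearest to Cd44 were Kcnn4 (difference 0.07, log2 fold change 1.04), Uck2 (0.10, 0.87) and Onecut2 (0.11, 0.86). The measure describes these libraries only.

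Genes that act with the receptors were counted by role, beside the 21.4% of all genes called higher and the 22.6% called lower. These lists too were chosen with earlier results of these data known. Of 20 genes of cytokine receptors, their adaptors and kinases, and transcription factors that act in the induction of adhesion receptors, 11 were called higher and 2 lower, and the median log2 fold change was 0.17. Relb, an NF-kB subunit, rose from 61.7 ± 4.01 to 101.7 ± 2.58 CPM (0.72 ± 0.06 on the log2 scale, edgeR adjusted p = 7.5e-05). A further subunit, encoded by Rela, rose by a log2 fold change of 0.45 ± 0.05, and Jun, a component of AP-1, by 0.42 ± 0.05. The 2 lower genes were Tnfrsf1a, a receptor of tumour necrosis factor (-0.36 ± 0.05), and Gata2, a blood and endothelial transcription factor (-0.30 ± 0.09). The Gata2 call was lost in each fit without 1 library other than stretch replicate 4. Higher calls numbered 8 to 10 when 1 library was left out and 8 with scaling by library size alone. Of these, the call of the transcription factor gene Atf2 was lost in 5 of the 6 fits without 1 library, that of the receptor gene Il1rap in 4 and that of the adaptor gene Traf2 in 3.

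Under the membrane, receptor tails are tied to actin by ezrin family proteins and filamins in the docking structure around a bound leukocyte. Of 15 such genes and their tetraspanin partners, 8 were called higher and 1 lower (median 0.25). Msn, which encodes moesin, rose from 1888 ± 40.2 to 2503 ± 145 CPM (0.41 ± 0.06 on the log2 scale, edgeR adjusted p = 0.00071). The filamin gene Flna rose by 0.41 ± 0.06 and the tetraspanin gene Cd9 by 0.31 ± 0.05 on the log2 scale. The 1 lower gene was the tetraspanin gene Cd151 (-0.16 ± 0.05), whose call was lost without control replicate 2 or 3 or stretch replicate 1 or 4.

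Genes for passage through junctions were mixed, with 2 higher, 2 lower and 7 not passed of 11 (median -0.09). Pvr, a nectin-like receptor at junctions, rose from 189 ± 5.20 to 388 ± 22.5 CPM (1.04 ± 0.05 on the log2 scale, edgeR adjusted p = 3.7e-05), and F11r, which encodes junctional adhesion molecule A, rose by 0.17 ± 0.06. Jam3, which encodes junctional adhesion molecule C, fell (-0.62 ± 0.10), as did Cd99l2 (-0.30 ± 0.06). The F11r call was lost without control replicate 2 or 3 or stretch replicate 1 and with scaling by library size alone. Without control replicate 3, 4 of these genes were called lower.

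On the ligand side, 5 of 11 tested genes for selectin ligands and their sugar enzymes were called higher and 2 lower (median 0.34). The sialomucin gene Podxl rose from 158.8 ± 21.5 to 278.5 ± 11.7 CPM (0.81 ± 0.09 on the log2 scale, edgeR adjusted p = 0.000253). Cd24a rose by 0.68 ± 0.09, the galactosyltransferase gene B4galt1 by 0.46 ± 0.06, the sulfotransferase gene Chst2 by 0.89 ± 0.14 and the sialyltransferase gene St3gal6 by 0.34 ± 0.09 on the log2 scale. The 2 lower genes were Glg1 (-0.21 ± 0.05) and St3gal4 (-0.25 ± 0.06). The St3gal6 call was lost without control replicate 2 or 4 and with scaling by library size alone.

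Among integrin and other counter-receptors, 6 of 12 tested genes were called higher and 1 lower (median 0.36). Spp1, which encodes the CD44 ligand osteopontin, rose from 23.9 ± 3.59 to 56.7 ± 7.32 CPM (1.25 ± 0.13 on the log2 scale, edgeR adjusted p = 0.000159). Lgals3, the gene of galectin-3, rose by 0.79 ± 0.12 on the log2 scale. Sirpa, which encodes the phagocyte receptor for CD47, was the 1 lower gene, from 111.4 ± 11.6 to 82.3 ± 0.417 CPM (-0.44 ± 0.07 on the log2 scale). When 1 library was left out, 4 to 5 genes were called higher. The call of Itgam, the alpha chain of Mac-1, was lost in 5 of those 6 fits and that of Thbs1, the gene of the CD47 ligand thrombospondin, in 4. Itgb2, the beta chain of Mac-1, rose by 0.92 ± 0.19 and Itgb1 by 0.32 ± 0.07 on the log2 scale. Both kept their calls in all 13 alternatives. Macrophages also express Lgals3, Itgam, Itgb2 and Sirpa, and the summed macrophage markers were higher in every stretch library. Their part in these values was not tested.

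Receptors are shed by membrane proteases, and of 11 genes for such enzymes, their partners and inhibitors 3 were called higher and 1 lower (median 0.06). Rhbdf2, an iRhom that escorts ADAM17 to the surface, rose from 135.2 ± 2.50 to 206.6 ± 12.7 CPM (0.61 ± 0.05 on the log2 scale, edgeR adjusted p = 9.5e-05). Adam8 rose by 0.51 ± 0.07 and Rhbdf1 by 0.22 ± 0.06 on the log2 scale, and Adam10 fell (-0.22 ± 0.05). The Rhbdf1 call was lost without control replicate 2 and with scaling by library size alone, and without stretch replicate 1 the number lower was 2.

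Of 11 genes for making, breaking and binding hyaluronan, the ligand of CD44, 0 were called higher by edgeR, also at an unadjusted p under 0.05 and by DESeq2 and limma-voom, and 2 were lower (median -0.01). Tmem2, which encodes a cell-surface hyaluronidase, fell from 619 ± 44.3 to 414 ± 13.9 CPM (-0.58 ± 0.06 on the log2 scale, edgeR adjusted p = 0.000186). Stab2, a hyaluronan clearance receptor of sinusoidal endothelium, fell from 1776 ± 66.5 to 1506 ± 148 CPM (-0.24 ± 0.07, edgeR adjusted p = 0.0303). The Stab2 call was lost without control replicate 2 or 4 or stretch replicate 2 or 4 (adjusted p from 0.0657 to 0.0905). Of 8 other tested genes of the selectin and immunoglobulin adhesion families, 1 was called higher and 0 lower by edgeR, also at an unadjusted p under 0.05 and by DESeq2 and limma-voom (median -0.01). Cadm1 rose from 3.92 ± 0.880 to 7.75 ± 1.58 CPM (0.98 ± 0.20 on the log2 scale, edgeR adjusted p = 0.00468), and Chl1 did not pass (-0.78 ± 0.41, edgeR adjusted p = 0.158).

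**Figure D5:**
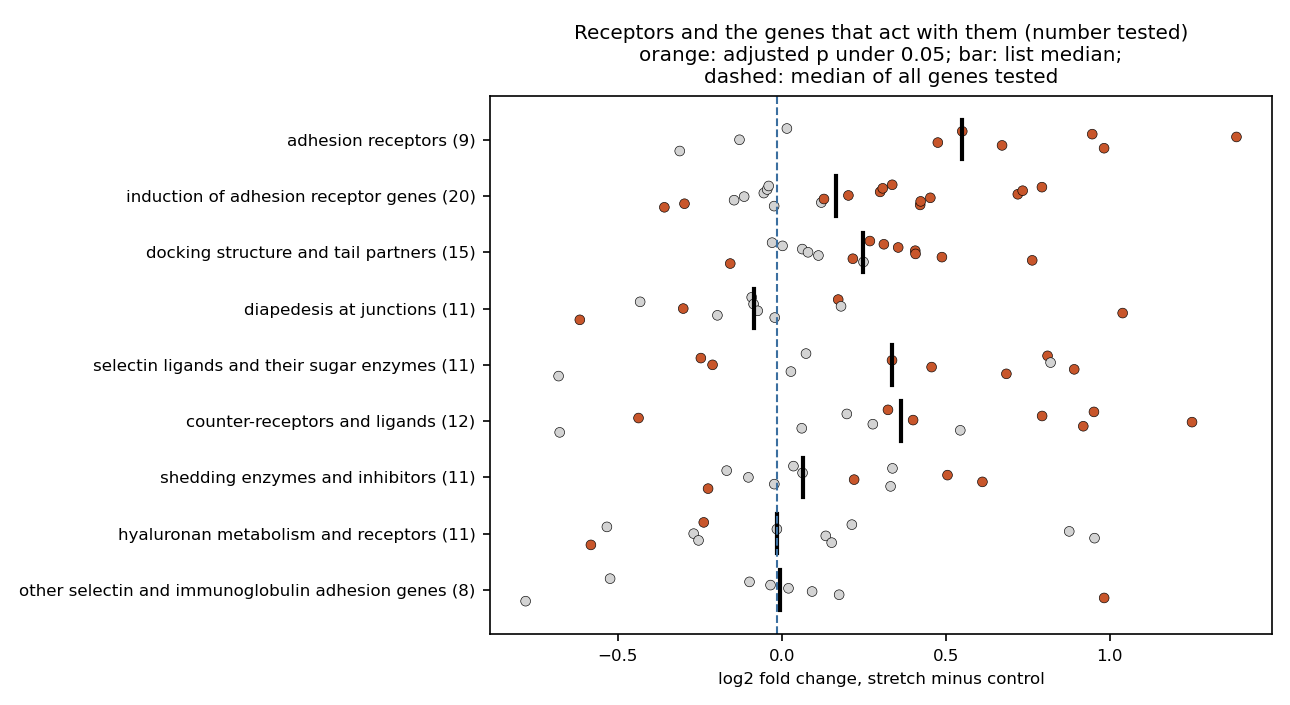
Log2 fold change of stretch over control (horizontal axis) of each tested gene in the receptor list and in 8 lists of genes that act with it, in orange where the edgeR adjusted p is under 0.05, with a bar at the list median and a dashed line at the median of all genes (-0.01). The receptor median of 0.55 lies to the right of the other medians, which run from -0.09 to 0.36. Receptors and lists were chosen with earlier results of these data known.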

How the data were processed

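RNA of 3 control and 3 stretch libraries was made into TruSeq libraries, and groups and replicate numbers were taken from the sample titles. The authors deposited raw counts per gene, RPKM values per kilobase of coding length, and a comparison table with log2 fold changes, mean log2 CPM, a score (the likelihood ratio), p-values and FDR values, as the file headers show. TopHat2 2.1.0, featureCounts, edgeR and the build GRCm38 (mm10) are listed in the submitters' processing notes. No source states the annotation or the strand setting.

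From the counts, edgeR 4.0.16 (R 4.3.3) computed TMM factors, removed low genes with filterByExpr and ran the quasi-likelihood test on group over 14222 genes, with Benjamini-Hochberg adjustment. A standard error is the absolute log2 fold change divided by the square root of F. Tested on simulated counts for the same 14222 genes with 200 changed, the fit recovered 69.4% of the genes changed 1.5-fold, 80.0% at 2-fold and 100% at 4-fold. It also called 10 unchanged genes. Far more genes (6261) were called in the data, so these shares do not give the recovery in this comparison. Alternatives were other scalings and filters, DESeq2 1.42.0, limma 3.58.1 (voom), a replicate block and leaving out each library.

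The members and all lists were chosen with earlier results of these data known. All members are named. In each list the genes named are up to 3 called genes with the smallest p, or the 2 with the smallest p where fewer than 2 were called. Tnfrsf1a, Gata2, Cd151, F11r, Chst2, St3gal6, Glg1, St3gal4, Rhbdf1, Atf2, Il1rap, Traf2, Itgam, Itgb2, Itgb1, Thbs1 and the single cell type markers were named after their values were seen. This was done to account for counts, sums and lost calls. Gm16548, Icam4 and Icam5 were named as neighbours of members. Cd99 and Ly6g were not analysed here, and 1 neighbouring gene is not reported here.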

Additional observations from a re-analysis of the deposited data

How the results depend on the processing

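The calls of Sele, Icam1, Vcam1, Cd44 and Mcam and their direction held in all 13 alternatives, with log2 fold changes of 1.28 to 1.53, 0.38 to 0.55, 0.58 to 0.74, 0.86 to 1.02 and 0.76 to 1.17. Members called higher were 5 to 6 when 1 library was left out (5 without control replicate 4), and those called lower 0 to 1. Icam2 changed sign with library size only (-0.079), with the replicate block (-0.057) and when 1 library was left out (-0.049 to 0.11). The cause was not tested. All genes called numbered 6261, and 4756 to 6390 over the alternatives.

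With library size only, 2 members were called lower, and with DESeq2 1. With library size only, the junction genes had 1 call higher and 4 lower, the shedding genes 3 lower and the other selectin and immunoglobulin genes 1 lower. The numbers 2 and 4 occur in both groups. Deviations of same-numbered libraries correlated at 0.23 and 0.04, and no label says what a number marks. A fit with the replicate block called 5568 genes. With the block, 1 member (Selp, -0.44, adjusted p = 0.00074) was called lower, as were 1 induction gene, 0 docking genes, 5 junction genes, 2 shedding genes and 1 other selectin or immunoglobulin gene, and 1 junction gene and 1 hyaluronan gene were called higher. The block ended the calls of F11r (adjusted p = 0.2498), Gata2 (0.209), Cd151 (0.130), Atf2 (0.192) and Itgam (0.146). Leaving out 1 library gave 1 to 2 lower calls for induction, 0 to 1 for docking, 2 to 4 for junctions, 1 to 2 for shedding and 1 to 2 for hyaluronan genes, and 1 to 3 higher calls for junctions. It also moved the log2 change of summed markers from -0.36 to 0.87 for neutrophils, -0.18 to 0.022 for platelets and megakaryocytes, -0.40 to 0.011 for stellate cells and fibroblasts, -0.082 to 0.026 for all endothelium and -0.10 to 0.017 for large vessel endothelium. Depth limits Madcam1, with at most 8 counts in a library.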
